A study of Mus musculus with 56 samples.

Results

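Gene expression was compared between livers of mice under daytime-restricted feeding (DRF) taken at zeitgeber time 20 (ZT20) and livers of mice under nighttime-restricted feeding (NRF) taken at ZT8. Zeitgeber time counts hours from lights on under 12 h of light per day, so DRF ZT20 lay in the dark and NRF ZT8 in the light. Both groups were taken 8 h after the switch of the light phase that closed their access to food, since DRF mice ate in the light and NRF mice in the dark. Each group held 4 female C57BL/6J mice aged 9 weeks, after 7 days on the regimen, which makes 8 of the 56 libraries of the series. The 8 libraries are defined by regimen and time alone, but the comparison was chosen with earlier results of these data known. The hours of food access are known only as day or night, so the 8 h is counted from the light switch. Because every DRF animal was in the dark and every NRF animal in the light, light phase and feeding regimen cannot be told apart within this pair, and the difference DRF ZT20 minus NRF ZT8 is called dark minus light below only as a name.

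The liver holds a circadian clock in which the activators BMAL1 (gene Arntl) and CLOCK switch on the genes of their own repressors, the PER and CRY proteins, REV-ERBs and DEC proteins. Feeding sets much of the daily timing of the liver, whereas the master clock of the brain follows light. During fasting the liver breaks down glycogen, turns amino acid carbon into glucose and disposes of the nitrogen as urea, and it slows the synthesis of lipid.

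All values below are scaled counts rebuilt from the deposited gene values, in which 1 unit is between 304 and 723 recovered counts and no correction for gene length is made, so they compare libraries and not genes. Log2 differences are of log2(scaled count + 1) and understate the change of genes with low values. Recovered counts summed to between 376.0 and 673.6 M (mega) counts in the 8 libraries. These sums lie far above the average read depth that the paper reports per sample, so a recovered count need not be a read. The mean correlation of a library with the others of its group was between 0.992 and 0.993 over all genes. An index of gene length, Spearman's correlation over genes between exon length and a library's deviation from the mean of all libraries, ran from 0.0804 to 0.207 in DRF ZT20 and from -0.188 to -0.0589 in NRF ZT8, without overlap (exact two-sided permutation test, p = 0.0286, the smallest that 4 against 4 animals allow). Genes higher in DRF ZT20 had a median exon length of 5170 bases and genes lower in DRF ZT20 one of 2493, against 2217 in genes not called. The part of length in the results was not tested, and counts after a correction for it stand beside the main ones. NRF ZT8 replicate 3 stood apart from the other animals of its group in several metabolic and clock genes, and values without it are given where they change a call. Hepatocyte markers were at high levels in all 8 libraries: albumin (Alb) lay between 81315 and 99510.1 scaled counts.

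Of 25359 genes tested, 4147 (16.4%) differed between the groups at an adjusted p under 0.05 (limma, Benjamini-Hochberg over all genes). In DRF ZT20, 1990 genes (7.85%) were higher and 2157 (8.51%) were lower. The difference was at least 2-fold, on the log2(scaled count + 1) scale, for 68 of the higher and 90 of the lower genes, and the median size of a called difference was 0.39 (log2). The groups did not overlap in 21.5% of all genes. In bulk liver, fewer cells of a type and less RNA per cell cannot be told apart. After correction for gene length 3653 genes were called, 1988 of them higher. The split of directions depended on the scale and on the scaling between libraries. On the values as deposited, which are logarithmic in the counts, 4968 genes were called. Of these, 80.0% were higher in DRF ZT20, against 48.0% of those called on scaled counts. After median-of-ratios scaling 4207 genes were called, 2371 of them higher and 1836 lower in DRF ZT20.

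Gene positions are on GRCm38 as GENCODE vM21 gives them. The 15 genes with the largest differences upward in DRF ZT20 were led by a cytochrome P450. Genes entered the 15 of either direction only if the groups did not overlap, so their lack of overlap is not added evidence. Cyp2b10 (chr7:25897620-25926624), a cytochrome P450 induced through the nuclear receptor CAR, measured 412, 647, 1111 and 332 in DRF ZT20 and 87.7, 54., 122 and 46. in NRF ZT8. Every DRF ZT20 animal lay above every NRF ZT8 animal, with a 8.07-fold higher mean (log2 difference 2.94, SE 0.38, adjusted p = 5.03e-07). Mfsd2a (chr4:122946850-122961188), a carrier of lysophospholipids, measured 77.2, 95.3, 125 and 128 in DRF ZT20 and 13.2, 19.5, 26.3 and 21.2 in NRF ZT8, again without overlap (log2 difference 2.36, SE 0.33, adjusted p = 1.73e-06). The tubulin complex gene Tedc2 was 3.58-fold higher (log2 difference 1.7, SE 0.22, adjusted p = 5.03e-07). Extl1, of heparan sulfate synthesis, was 4.94-fold higher (log2 difference 1.97, SE 0.27, adjusted p = 1.68e-06). Nnmt, which methylates nicotinamide, was 3.25-fold higher (log2 difference 1.68, SE 0.23, adjusted p = 1.72e-06). Acmsd, an enzyme of tryptophan breakdown, was 4.19-fold higher (log2 difference 1.98, SE 0.24, adjusted p = 1.79e-07). Fmo5, a flavin monooxygenase, rose 3.16-fold (log2 difference 1.62, SE 0.20, adjusted p = 1.40e-07). Slc22a29, an organic anion transporter family member, rose 3.8-fold (log2 difference 1.86, SE 0.36, adjusted p = 2.65e-04). Cyp17a1, a steroid hydroxylase, rose 3.0-fold (log2 difference 1.53, SE 0.37, adjusted p = 0.00302). For Eif4ebp3, an inhibitor of translation initiation, 67.3% of the exon bases are shared with another gene on the same strand, so its 7.91-fold higher level (log2 difference 2.22, SE 0.34, adjusted p = 8.75e-06) is uncertain. The remaining 5 of the 15 largest upward differences were Gsta1, G6pc, Got1, Arntl and Asl, described with their groups.

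At the other end stood Serpina1e (chr12:103946931-103958975), a member of the alpha-1 antitrypsin cluster of serine protease inhibitors, with 447, 284, 264 and 181 in DRF ZT20 and 2047, 2335, 1412 and 2488 in NRF ZT8. Its mean was 7.04-fold higher in NRF ZT8 (log2 difference -2.85, SE 0.49, adjusted p = 5.74e-05). Sort1, a sorting receptor for lipoproteins and lysosomal proteins, measured 25.1, 15.8, 21.6 and 16.4 in DRF ZT20 and 63.4, 81.8, 65.4 and 88.6 in NRF ZT8, a 3.79-fold higher mean in NRF ZT8 (log2 difference -1.88, SE 0.21, adjusted p = 4.14e-08). Clec2h, a C-type lectin, was 5.51-fold higher in NRF ZT8 (log2 difference -1.83, SE 0.27, adjusted p = 3.87e-06). The adhesion receptor Adgrf1 was 3.71-fold higher (log2 difference -1.82, SE 0.28, adjusted p = 8.44e-06). AI661453 was 3.23-fold higher in NRF ZT8 (log2 difference -1.62, SE 0.33, adjusted p = 3.84e-04). A1bg, a plasma glycoprotein, was 3.69-fold higher (log2 difference -1.9, SE 0.56, adjusted p = 0.0148), lost without DRF ZT20 replicate 2 (adjusted p = 0.0633). Tmem254a and Chmp2a passed narrowly (log2 difference -1.97, SE 0.67, adjusted p = 0.0374 and log2 difference -1.64, SE 0.58, adjusted p = 0.0442), and each lost its call when any of 7 of the 8 libraries was left out, all but DRF ZT20 replicate 4 for Tmem254a and all but NRF ZT8 replicate 2 for Chmp2a. The other 7 of the 15 largest downward differences were Cyp3a44, Hsd3b5, Ccnd1, Nr1d1, Ckap2l, Col4a3 and Mvd. Serpina1e, Cyp3a44, Gsta1, Cyp2b10, Cyp2a4, Cyp3a59, Slc22a29 and Tmem254a have near-identical relatives in the genome, so the authors' counting may have split their reads.

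**Figure D1:**
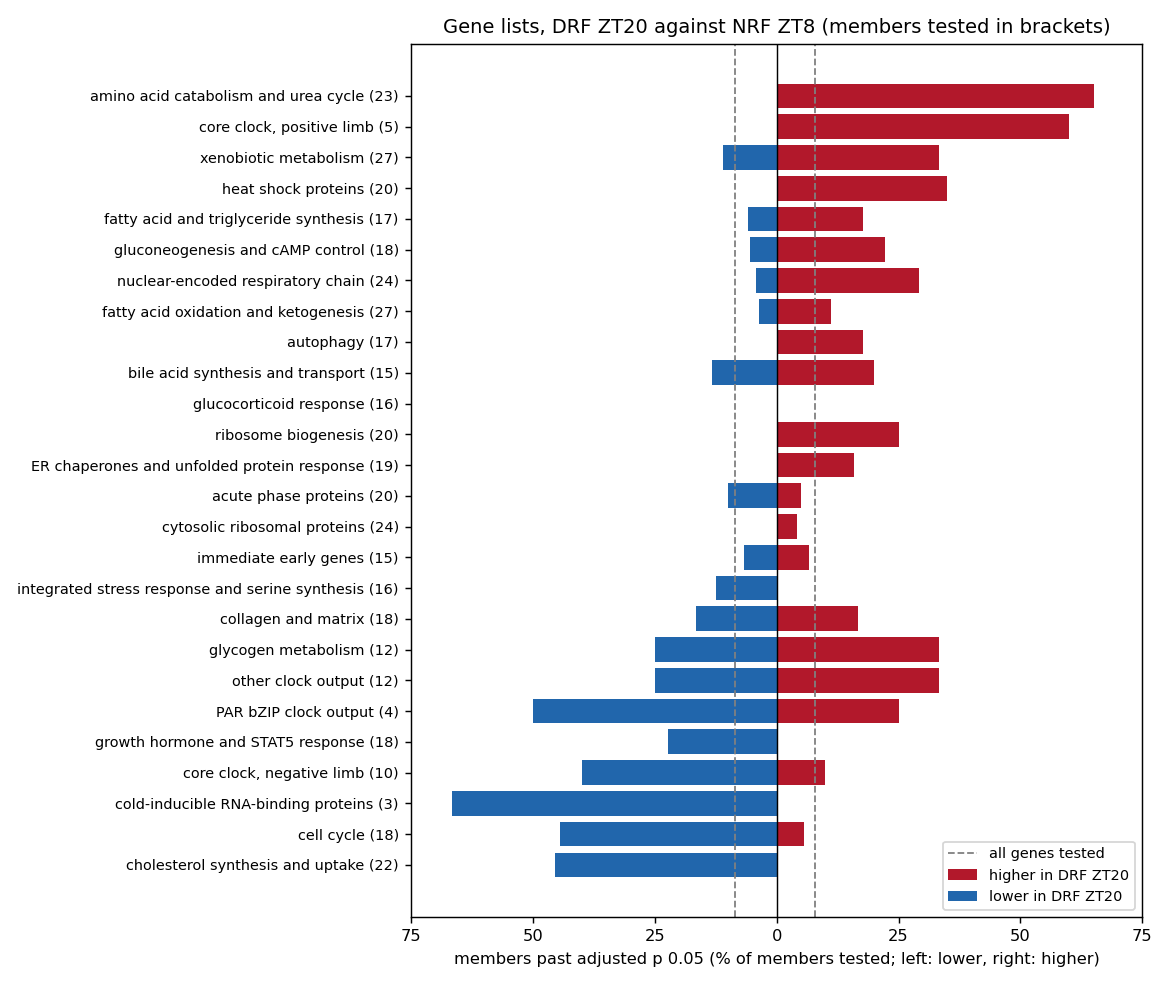
Share of the members of each of 26 gene lists that were higher (red, right) or lower (blue, left) in DRF ZT20 at an adjusted p under 0.05, in percent of the members tested, with lists ordered by their median log2 difference. Dashed lines mark the shares over all genes tested, 7.85% higher and 8.51% lower. Amino acid breakdown and the positive limb of the clock lie furthest right of the line for higher genes, and cold-inducible genes, the PAR bZIP outputs, cholesterol synthesis and the cell cycle lie far left of the line for lower genes.

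In the clock, the called activators were higher and 4 of the 5 called repressors lower in DRF ZT20. In the positive limb 3 of 5 members tested were higher and 0 lower in DRF ZT20 (median log2 difference 0.43), where 7.85% of all genes were higher and 8.51% lower. Counts of called members in every list of this comparison below stand against these shares. Arntl (chr7:113207465-113314126), which encodes BMAL1, measured 19.8, 21.9, 17.2 and 7.95 in DRF ZT20 and 6.72, 6.26, 2.73 and 3.77 in NRF ZT8. The lowest DRF ZT20 animal still lay above the highest NRF ZT8 animal, with a 3.43-fold higher mean (log2 difference 1.57, SE 0.19, adjusted p = 1.26e-07). Its partner Clock measured 105, 109.8, 97. and 95.9 in DRF ZT20 and 64.2, 69.5, 35.8 and 57. in NRF ZT8, without overlap (log2 difference 0.88, SE 0.16, adjusted p = 8.17e-05). Rora, a nuclear receptor that activates Arntl, was 1.3-fold higher (log2 difference 0.37, SE 0.07, adjusted p = 2.59e-04), whereas Npas2 was low in all 8 livers, between 0.202 and 0.492, and did not pass (log2 difference 0.1, SE 0.17, adjusted p = 0.817).

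Among the repressors 1 of 10 members tested were higher and 4 lower in DRF ZT20 (median log2 difference -0.42). Bhlhe41 (chr6:145858243-145865558) (DEC2), a repressor that binds E-boxes, gave the clearest difference with 0.31, 0.527, 0.385 and 0.427 in DRF ZT20 and 1.98, 1.35, 2.71 and 1.92 in NRF ZT8. It was 4.83-fold higher in NRF ZT8, with no animal between the groups (log2 difference -1.07, SE 0.10, adjusted p = 2.47e-09). Ciart (CHRONO), another repressor of BMAL1 and CLOCK, measured 0.18, 0.321, 0.344 and 0.358 in DRF ZT20 and 0.905, 0.964, 1.68 and 1.25 in NRF ZT8 and was 3.99-fold higher in NRF ZT8 (log2 difference -0.75, SE 0.11, adjusted p = 6.37e-06). Nr1d1 (REV-ERB alpha), which represses Arntl, measured 21.2, 48.1, 24.7 and 22.5 in DRF ZT20 and 88.1, 86.9, 80.2 and 78.8 in NRF ZT8. The DRF ZT20 animals except replicate 2 lay close together, and all 4 were below the NRF ZT8 animals (log2 difference -1.57, SE 0.31, adjusted p = 3.68e-04). Cry1 went the other way, with 33., 31.4, 36.8 and 34.2 in DRF ZT20 and 14.9, 15.3, 17. and 19.3 in NRF ZT8 and a 2.04-fold higher mean in DRF ZT20 (log2 difference 0.99, SE 0.20, adjusted p = 3.68e-04). Per3 overlapped between the groups and passed (log2 difference -0.66, SE 0.20, adjusted p = 0.0161), a call lost without DRF ZT20 replicate 2 (adjusted p = 0.103) or NRF ZT8 replicate 3 (adjusted p = 0.118). Per1 (log2 difference -0.6, SE 0.27, adjusted p = 0.14), Per2 (log2 difference -0.22, SE 0.26, adjusted p = 0.682), Cry2 (log2 difference -0.25, SE 0.10, adjusted p = 0.102) and Nr1d2 (log2 difference 0.05, SE 0.17, adjusted p = 0.932) did not pass.

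The E-box CACGTG, the site that BMAL1 with CLOCK and the DEC repressors bind, was searched on both strands of RefSeq promoters (GRCm38.p6), from 250 bases before to 50 after each gene's start. It was found in 4 of 8 genes of the negative limb with a promoter in the table, against 8.09% of all 27025 genes with one. Stretches around the match of the 3 that differed are shown because they hold the motif that the paired activators and repressors share. The match is in capitals, and all bases lie before the RefSeq start site. Bhlhe41 is read from chr6:145865518-145865623, Ciart from chr3:95882289-95882394 (1 of its 3 matches) and Cry1 from chr10:85185059-85185164, all on the minus strand.
Bhlhe41: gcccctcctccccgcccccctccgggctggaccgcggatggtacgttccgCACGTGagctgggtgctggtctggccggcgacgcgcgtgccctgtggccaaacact
Ciart: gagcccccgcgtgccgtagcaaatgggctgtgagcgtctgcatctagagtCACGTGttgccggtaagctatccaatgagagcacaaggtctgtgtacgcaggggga
Cry1: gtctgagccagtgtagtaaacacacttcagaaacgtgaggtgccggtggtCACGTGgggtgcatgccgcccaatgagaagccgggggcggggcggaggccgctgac
The match begins 153, 116 and 60 bases before the RefSeq start in Bhlhe41, Ciart and Cry1. The GENCODE position of Bhlhe41 given above places its start inside the stretch shown, so its RefSeq and GENCODE starts differ. Bhlhe41 and Ciart were lower and Cry1 was higher in DRF ZT20, so the shared motif did not go with 1 direction.

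**Figure D2:**
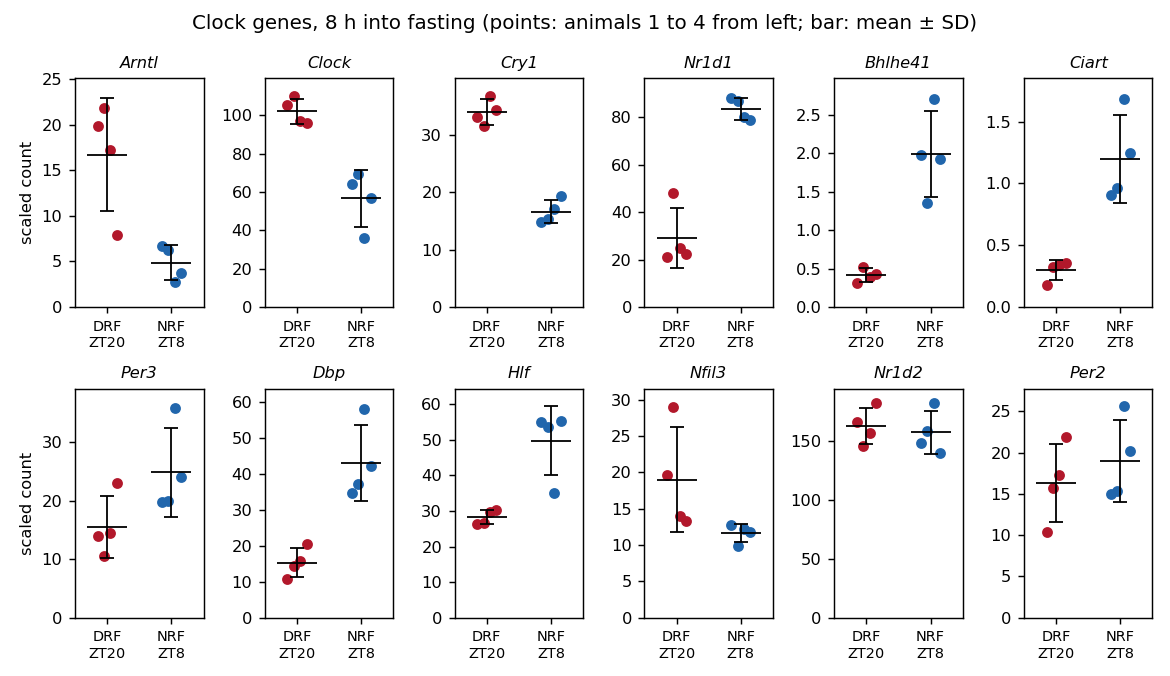
Scaled counts of 12 clock genes in the 4 DRF ZT20 animals (red) and the 4 NRF ZT8 animals (blue), each point 1 animal, with the mean and SD in black. Arntl, Clock, Cry1 and Nfil3 are higher in DRF ZT20 and Nr1d1, Bhlhe41, Ciart, Dbp and Hlf lower without overlap, while Per3, Nr1d2 and Per2 overlap.

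Clock output genes of the PAR bZIP family bind D-boxes and carry clock time to metabolic genes, and NFIL3 represses the same sites. In this group 1 of 4 members tested were higher and 2 lower in DRF ZT20 (median log2 difference -0.38). Dbp measured 10.7, 14.3, 15.8 and 20.5 in DRF ZT20 and 34.5, 37.2, 58.1 and 42.1 in NRF ZT8. Its mean was 2.81-fold higher in NRF ZT8 without overlap (log2 difference -1.44, SE 0.21, adjusted p = 5.27e-06). Hlf was 1.76-fold higher in NRF ZT8 (log2 difference -0.78, SE 0.19, adjusted p = 0.0031). Tef gave 53.8 ± 6.52 in DRF ZT20 and 53.7 ± 9.49 in NRF ZT8 (SD, n = 4) (log2 difference 0.01, SE 0.18, adjusted p = 0.998). Nfil3 was 1.63-fold higher in DRF ZT20 (log2 difference 0.6, SE 0.16, adjusted p = 0.00817), a call lost without DRF ZT20 replicate 2, its highest animal (adjusted p = 0.101). In the list of other outputs 4 of 12 members tested were higher and 3 lower in DRF ZT20 (median log2 difference -0.15). Lgalsl, a galectin-like gene, was 2.15-fold higher in DRF ZT20 (log2 difference 0.91, SE 0.16, adjusted p = 5.01e-05). The uridine phosphorylase gene Upp2 was 1.9-fold higher in NRF ZT8 (log2 difference -0.91, SE 0.25, adjusted p = 0.0085), lost without DRF ZT20 replicate 2 (adjusted p = 0.0618) or NRF ZT8 replicate 3 (adjusted p = 0.0685). On the values as deposited Dbp, Nr1d1, Hlf, Per3 and Upp2 kept their direction and did not pass.

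In amino acid breakdown and the urea cycle 15 of 23 members tested were higher and 0 lower in DRF ZT20 (median log2 difference 0.66), and the groups did not overlap in 16 of the members, all with DRF ZT20 above, where 9.97% of all genes were above without overlap. Asl (chr5:130011258-130029247), which splits argininosuccinate in the urea cycle, measured 656, 782, 832 and 608 in DRF ZT20 and 230.2, 246, 304 and 231 in NRF ZT8, a 2.85-fold higher mean (log2 difference 1.5, SE 0.16, adjusted p = 1.75e-08). Got1, the cytosolic aspartate aminotransferase, measured 363, 356, 438 and 252 in DRF ZT20 and 106, 103, 171 and 85.5 in NRF ZT8 and was 3.03-fold higher (log2 difference 1.61, SE 0.22, adjusted p = 1.40e-06). Each of the 4 DRF ZT20 livers exceeded each NRF ZT8 liver in both genes. Of the other urea cycle genes, Cps1, which makes carbamoyl phosphate, averaged 27681 ± 4172 in DRF ZT20 and 13124 ± 2504 in NRF ZT8 (log2 difference 1.08, SE 0.15, adjusted p = 1.86e-06). Ass1, which makes argininosuccinate, averaged 12986 ± 2291 in DRF ZT20 and 6991 ± 1964 in NRF ZT8 (log2 difference 0.91, SE 0.20, adjusted p = 0.00133). Arg1, which releases urea, averaged 1270.2 ± 139 in DRF ZT20 and 721 ± 79.5 in NRF ZT8 (log2 difference 0.82, SE 0.11, adjusted p = 5.56e-07). All 3 rose. The ornithine carrier Slc25a15 was 2.01-fold higher (log2 difference 1.0, SE 0.12, adjusted p = 1.74e-07). Tdo2, which opens the tryptophan ring, was 2.39-fold higher (log2 difference 1.24, SE 0.15, adjusted p = 1.74e-07). Gpt2, the mitochondrial alanine aminotransferase, was 2.26-fold higher (log2 difference 1.19, SE 0.16, adjusted p = 1.04e-06). After correction for gene length 16 members were higher and 0 lower.

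Gluconeogenesis and its cAMP control gave 4 higher and 1 lower in DRF ZT20 out of 18 tested (median log2 difference 0.25). G6pc (chr11:101367561-101377903), the catalytic subunit of glucose-6-phosphatase that releases free glucose, measured 251, 135, 429.6 and 361 in DRF ZT20 and 40.9, 68.2, 49.8 and 78.7 in NRF ZT8. It was 4.95-fold higher in DRF ZT20 without overlap (log2 difference 2.21, SE 0.34, adjusted p = 1.08e-05). Pck1, the other main gluconeogenic enzyme gene, gave 828 ± 215 in DRF ZT20 and 444 ± 77.5 in NRF ZT8 and did not pass although the groups did not overlap (log2 difference 0.88, SE 0.36, adjusted p = 0.0926). It passed in a fit on the 8 libraries alone (adjusted p = 0.0286) and on the values as deposited (adjusted p = 0.0338). Trib3, an inhibitor of AKT, was 2.47-fold higher in NRF ZT8 (log2 difference -1.22, SE 0.27, adjusted p = 0.00105), lost on the values as deposited (adjusted p = 0.0552). Glycogen genes gave 4 higher and 3 lower in DRF ZT20 out of 12 tested (median log2 difference -0.05). Ppp1r3b, a glycogen-targeting subunit of protein phosphatase 1, measured 30.5, 44.9, 54.5 and 48.4 in DRF ZT20 and 18.6, 17.6, 10.4 and 18.1 in NRF ZT8 (log2 difference 1.41, SE 0.24, adjusted p = 4.18e-05). Gys2, the liver glycogen synthase, was 1.37-fold higher in NRF ZT8 (log2 difference -0.44, SE 0.11, adjusted p = 0.00577), lost without NRF ZT8 replicate 3, its highest animal (adjusted p = 0.0632). G6pc and Ppp1r3b were thus higher in DRF ZT20, while Trib3 and Gys2 were lower.

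In cholesterol synthesis and uptake 0 of 22 members tested were higher and 10 lower in DRF ZT20 (median log2 difference -0.61). These genes are driven by SREBP2, which is active when sterols are low. Mvd (chr8:122433601-122443422), a decarboxylase of the mevalonate pathway, measured 7.95, 8.02, 9.69 and 8.96 in DRF ZT20 and 31.7, 44.3, 13.8 and 24.6 in NRF ZT8. The NRF ZT8 animals were spread over a wide range and all above the DRF ZT20 animals, which lay within 7.95 to 9.69 (log2 difference -1.51, SE 0.27, adjusted p = 9.89e-05). Hmgcs1, the HMG-CoA synthase of the cytosol, measured 157, 128, 140.2 and 142 in DRF ZT20 and 363, 859, 226 and 316 in NRF ZT8, with NRF ZT8 replicate 2 far above its group (log2 difference -1.44, SE 0.26, adjusted p = 9.89e-05). Mvk, the mevalonate kinase, was 2.32-fold higher in NRF ZT8 (log2 difference -1.11, SE 0.20, adjusted p = 9.10e-05). Fdft1, the squalene synthase, was 2.07-fold higher there (log2 difference -1.0, SE 0.20, adjusted p = 3.12e-04). Without NRF ZT8 replicate 2, 5 members were lower with a median of -0.36, and without DRF ZT20 replicate 2 or 3, 6 were. On the values as deposited 5 were lower and 1 higher.

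A sterol element, TCACCCCAC on either strand, was found in 1 of 14 genes of this list with a promoter in the table, Hmgcs1, against 0.614% of all genes. The stretch from chr13:119690164-119690272 on the plus strand is shown because Hmgcs1 is among the most changed of the list, with the match in capitals 137 bases before the start.
Hmgcs1: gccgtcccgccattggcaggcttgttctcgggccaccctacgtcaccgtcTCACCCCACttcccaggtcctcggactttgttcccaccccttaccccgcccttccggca

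**Figure D3:**
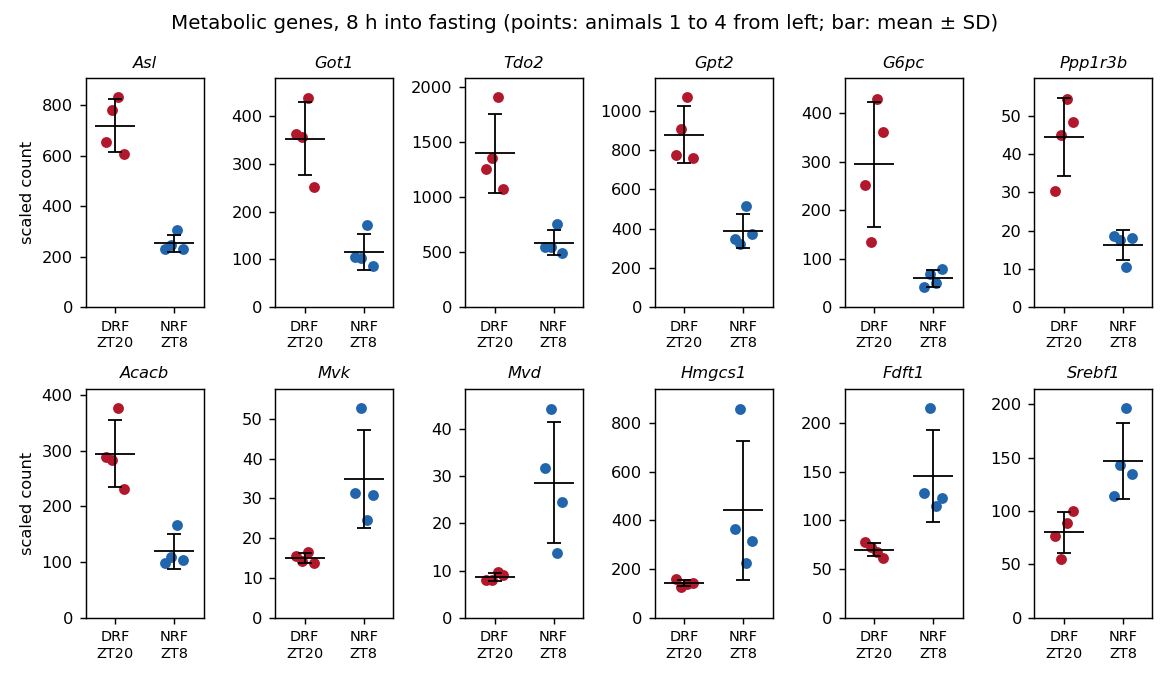
Scaled counts of 12 metabolic genes in the 4 DRF ZT20 animals (red) and the 4 NRF ZT8 animals (blue), each point 1 animal, with the mean and SD in black. Asl, Got1, Tdo2, Gpt2, G6pc, Ppp1r3b and Acacb are higher in DRF ZT20, and Mvk, Mvd, Hmgcs1, Fdft1 and Srebf1 are lower, with NRF ZT8 replicate 2 the highest animal in Mvk, Mvd, Hmgcs1 and Fdft1.

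Genes of fatty acid and triglyceride synthesis gave 3 higher and 1 lower in DRF ZT20 out of 17 tested (median log2 difference 0.28). Acacb, the acetyl-CoA carboxylase that restrains fatty acid entry into mitochondria, measured 289, 283, 377 and 231 in DRF ZT20 and 98.7, 109.9, 167 and 103 in NRF ZT8 (log2 difference 1.31, SE 0.25, adjusted p = 2.32e-04). Me1, the malic enzyme that supplies NADPH, was 1.99-fold higher in DRF ZT20 (log2 difference 0.98, SE 0.27, adjusted p = 0.00857), lost without DRF ZT20 replicate 3 (adjusted p = 0.054). Their regulator Srebf1 (SREBP1) went the other way and was 1.84-fold higher in NRF ZT8 (log2 difference -0.87, SE 0.20, adjusted p = 0.00195), lost on the values as deposited (adjusted p = 0.0713). In fatty acid oxidation and ketogenesis 3 of 27 members tested were higher and 1 lower in DRF ZT20 (median log2 difference 0.18), a share near that of all genes, and none was higher without DRF ZT20 replicate 2. Bdh1, which makes the ketone body hydroxybutyrate, was 1.72-fold higher in NRF ZT8 (log2 difference -0.78, SE 0.14, adjusted p = 1.45e-04). Pdk4, which closes pyruvate oxidation in fasting, overlapped between groups (log2 difference 0.92, SE 0.33, adjusted p = 0.0466) and lost its call without DRF ZT20 replicate 2 (adjusted p = 0.335), DRF ZT20 replicate 1 or NRF ZT8 replicate 3 or 4. Apoa1, the main protein of HDL, was 1.95-fold higher in NRF ZT8 (log2 difference -0.95, SE 0.25, adjusted p = 0.00638), lost on the values as deposited (adjusted p = 0.355).

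Xenobiotic metabolism gave 9 higher and 3 lower in DRF ZT20 out of 27 tested (median log2 difference 0.3), where 7.85% of all genes were higher and 8.51% lower. Gsta1, a glutathione transferase, measured 14.7, 22.6, 32.1 and 9.11 in DRF ZT20 and 2.16, 0.267, 8.09 and 0.405 in NRF ZT8, with a 7.19-fold higher mean in DRF ZT20 and a wide spread in both groups (log2 difference 2.81, SE 0.62, adjusted p = 0.00117). Cyp3a13 was 1.75-fold higher (log2 difference 0.8, SE 0.11, adjusted p = 2.20e-06). The sulfotransferase gene Sult1d1 was 2.34-fold higher (log2 difference 1.23, SE 0.22, adjusted p = 1.14e-04). Cyp2a4, a steroid hydroxylase, was 2.32-fold higher in NRF ZT8 (log2 difference -1.2, SE 0.26, adjusted p = 7.86e-04). Ahr, the receptor for dioxins, was 1.4-fold higher in NRF ZT8 (log2 difference -0.47, SE 0.15, adjusted p = 0.022), lost without any of DRF ZT20 replicates 1 and 3 and NRF ZT8 replicates 1, 2 and 4. Bile acid genes gave 3 higher and 2 lower in DRF ZT20 out of 15 tested (median log2 difference 0.12). Baat, which joins bile acids to taurine or glycine, averaged 400.0 ± 11.8 in DRF ZT20 and 281 ± 13.5 in NRF ZT8 (log2 difference 0.51, SE 0.09, adjusted p = 1.08e-04). Abcg5 and Abcg8, the 2 subunits of the sterol exporter into bile, were 1.56-fold and 1.64-fold higher in NRF ZT8 (log2 difference -0.65, SE 0.14, adjusted p = 9.85e-04 and log2 difference -0.71, SE 0.18, adjusted p = 0.0044). Both calls were lost on the values as deposited (adjusted p = 0.227 and 0.16).

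Genes that respond to growth hormone through STAT5 gave 0 higher and 4 lower in DRF ZT20 out of 18 tested (median log2 difference -0.39). Besides Serpina1e, Hsd3b5, a male-biased steroid dehydrogenase, measured 3.26, 0.796, 0.769 and 1.18 in DRF ZT20 and 20.7, 4.74, 5.25 and 30.8 in NRF ZT8 (log2 difference -2.43, SE 0.62, adjusted p = 0.00481). Values ranged widely within both groups without overlap. Igfbp2, which binds insulin-like growth factors, was 2.27-fold higher in NRF ZT8 (log2 difference -1.2, SE 0.20, adjusted p = 3.52e-05). Igfals, which stabilises them in blood, measured 18.3, 66.8, 16.9 and 20.1 in DRF ZT20 and 97.2, 103, 22.6 and 99. in NRF ZT8. One animal of each group lay among the other group's, and the call (log2 difference -1.4, SE 0.41, adjusted p = 0.0133) was lost without DRF ZT20 replicate 3 (adjusted p = 0.0629) or any of NRF ZT8 replicates 1, 2 and 4 (adjusted p between 0.0512 and 0.0595). Outside this list, Cyp3a44, a female-biased cytochrome P450, measured 119, 59.6, 73.1 and 60.3 in DRF ZT20 and 716, 192, 565 and 428 in NRF ZT8 (log2 difference -2.5, SE 0.48, adjusted p = 2.41e-04).

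Heat shock proteins, chaperones driven by HSF1, gave 7 higher and 0 lower in DRF ZT20 out of 20 tested (median log2 difference 0.29). Hsph1, a nucleotide exchange factor of HSP70, measured 13.3, 21.3, 13.7 and 20.5 in DRF ZT20 and 6.72, 8.71, 5.32 and 7.83 in NRF ZT8 (log2 difference 1.15, SE 0.31, adjusted p = 0.00822). Chordc1, a co-chaperone of HSP90, was 1.81-fold higher in DRF ZT20 (log2 difference 0.75, SE 0.17, adjusted p = 0.0012). Hspa8, the constitutive HSP70, was 1.7-fold higher (log2 difference 0.75, SE 0.23, adjusted p = 0.0221) and lost its call without DRF ZT20 replicate 2 (adjusted p = 0.108) or NRF ZT8 replicate 1 or 2. The cold-inducible RNA-binding proteins, which fall as body temperature rises, gave 0 higher and 2 lower in DRF ZT20 out of 3 tested (median log2 difference -0.51). Cirbp measured 2.62, 1.26, 2.09 and 1.58 in DRF ZT20 and 3.19, 4.43, 3.84 and 4.07 in NRF ZT8 (log2 difference -0.77, SE 0.19, adjusted p = 0.0036). Rbm3 averaged 2.3 ± 0.243 in DRF ZT20 and 3.69 ± 0.256 in NRF ZT8 (log2 difference -0.51, SE 0.14, adjusted p = 0.00881). The called heat shock genes were higher and the 2 called cold-inducible genes lower, and no body temperature was analysed here.

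A heat shock element, GAANNTTC on either strand, was found in 10 of 15 of the heat shock genes with a promoter in the table, against 9.04% of all genes. Hspd1, the mitochondrial HSP60 gene that averaged 276 ± 16.5 in DRF ZT20 and 230.2 ± 17.9 in NRF ZT8 (log2 difference 0.26, SE 0.09, adjusted p = 0.0487), is shown because it is a called member whose match lies before the start, though its call was lost without any of DRF ZT20 replicates 2 to 4 or NRF ZT8 replicates 1, 3 and 4. Its stretch is chr1:55088014-55088121 on the minus strand, with the match in capitals 139 bases before the start.
Hspd1: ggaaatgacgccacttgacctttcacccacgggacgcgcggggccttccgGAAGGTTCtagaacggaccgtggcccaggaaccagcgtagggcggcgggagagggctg

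Nuclear-encoded respiratory chain genes gave 7 higher and 1 lower in DRF ZT20 out of 24 tested (median log2 difference 0.19), where 7.85% of all genes were higher and 8.51% lower. Cox5a was 1.34-fold higher in DRF ZT20 (log2 difference 0.42, SE 0.09, adjusted p = 0.00145). Cox6a1, another subunit of cytochrome oxidase, was the member that was lower, with 39., 47.5, 47.6 and 44. in DRF ZT20 and 87.7, 89.6, 81.7 and 91.2 in NRF ZT8 (log2 difference -0.96, SE 0.30, adjusted p = 0.0195). The call of Cox6a1 was lost after correction for gene length (adjusted p = 0.0943), or without DRF ZT20 replicate 1 (adjusted p = 0.0523). The higher members numbered 3 without DRF ZT20 replicate 3, 4 without NRF ZT8 replicate 4 and 12 after correction for gene length. In the fit on the 8 libraries alone 7 members were higher and 5 lower. Ribosome biogenesis gave 5 higher and 0 lower in DRF ZT20 out of 20 tested (median log2 difference 0.02), but 0 passed after correction for gene length, 1 without DRF ZT20 replicate 4 or without NRF ZT8 replicate 3, and 2 without DRF ZT20 replicate 3. Cytosolic ribosomal proteins gave 1 higher and 0 lower in DRF ZT20 out of 24 tested (median log2 difference -0.0046). The autophagy list gave 3 higher and 0 lower in DRF ZT20 out of 17 tested (median log2 difference 0.15), with Map1lc3b (LC3B), a protein of the autophagosome membrane, 2.1-fold higher (log2 difference 0.92, SE 0.22, adjusted p = 0.00278), lost in the fit on the 8 libraries alone (adjusted p = 0.0537). Chaperones of the endoplasmic reticulum gave 3 higher and 0 lower in DRF ZT20 out of 19 tested (median log2 difference -0.00039). The integrated stress response list gave 0 higher and 2 lower in DRF ZT20 out of 16 tested (median log2 difference -0.02). Acute phase proteins gave 1 higher and 2 lower in DRF ZT20 out of 20 tested (median log2 difference -0.0009), with C-reactive protein (Crp) 1.45-fold higher in DRF ZT20 (log2 difference 0.53, SE 0.11, adjusted p = 4.37e-04). Immediate early genes gave 1 higher and 1 lower in DRF ZT20 out of 15 tested (median log2 difference -0.01). Junb, a subunit of AP-1, overlapped, since DRF ZT20 replicate 2 measured 18.8 and the other 3 between 2.85 and 5.11 (log2 difference -1.28, SE 0.39, adjusted p = 0.0186), and its call was lost without DRF ZT20 replicate 1 or 3 or NRF ZT8 replicate 3. Genes of the glucocorticoid response gave 0 higher and 0 lower in DRF ZT20 out of 16 tested (median log2 difference 0.09). An unadjusted limma p under 0.05 was found in 4 of these 16, against 7005 of all 25359 genes. Of all genes 16.4% were called in either direction. The autophagy, endoplasmic reticulum, integrated stress, acute phase and immediate early lists had shares near that.

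The cell cycle list gave 1 higher and 8 lower in DRF ZT20 out of 18 tested (median log2 difference -0.51). Ckap2l, a protein of the mitotic spindle, measured 0.531, 0.437, 0.56 and 1.22 in DRF ZT20 and 10.1, 1.53, 1.9 and 5.57 in NRF ZT8 (log2 difference -1.53, SE 0.32, adjusted p = 5.46e-04). Mki67 measured 1.85, 0.81, 1.14 and 2.14 in DRF ZT20 and 10.2, 2.7, 2.25 and 5.67 in NRF ZT8 (log2 difference -1.17, SE 0.32, adjusted p = 0.00759). In both, NRF ZT8 replicates 1 and 4 were high, and replicates 2 and 3 lay nearer to DRF ZT20. The cyclin gene Ccnb1 and the kinase gene Plk1 had the same 2 highest animals (log2 difference -0.65, SE 0.14, adjusted p = 6.79e-04 and log2 difference -0.98, SE 0.21, adjusted p = 9.99e-04), at levels of at most 1.75 and 4.42. The lower members numbered 4 without NRF ZT8 replicate 1, 5 without replicate 4 and 2 in a fit on the 8 libraries alone. Mki67 lost its call without NRF ZT8 replicate 1 (adjusted p = 0.0726). In that fit Ckap2l (adjusted p = 0.0843), Mki67 (adjusted p = 0.116), Ccnb1 (adjusted p = 0.156) and Plk1 (adjusted p = 0.162) did not pass. Ccnd1 (chr7:144929931-144939925), the cyclin of the entry into the cycle, did not share this pattern: it measured 16.8, 6.8, 8.67 and 18.6 in DRF ZT20 and 56.9, 62.1, 33.8 and 50.7 in NRF ZT8 and was 4.01-fold higher in NRF ZT8 (log2 difference -1.99, SE 0.28, adjusted p = 2.19e-06). Rrm2, a subunit of ribonucleotide reductase, was 2.2-fold higher in DRF ZT20 (log2 difference 0.82, SE 0.20, adjusted p = 0.00266).

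**Figure D4:**
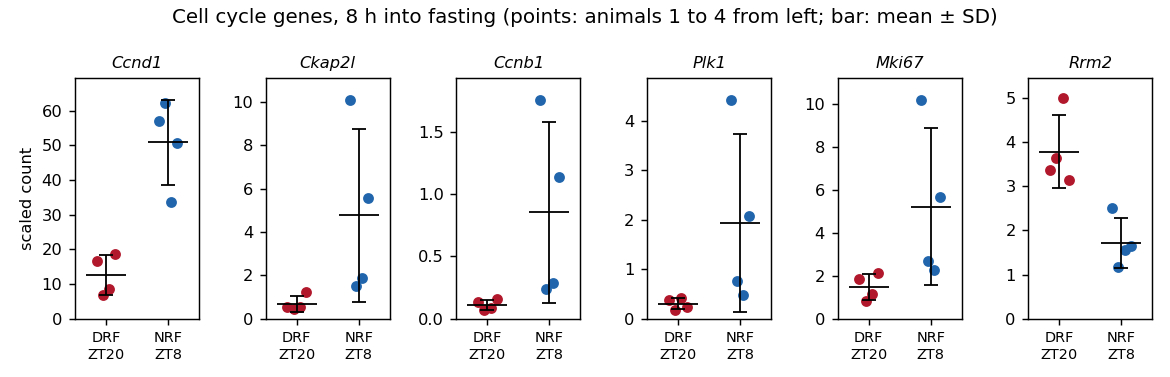
Scaled counts of 6 cell cycle genes in the 4 DRF ZT20 animals (red) and the 4 NRF ZT8 animals (blue), each point 1 animal in the order of replicates 1 to 4, with the mean and SD in black. In Ckap2l, Ccnb1, Plk1 and Mki67 NRF ZT8 replicates 1 and 4 are the highest, in Ccnd1 all 4 NRF ZT8 animals are, and Rrm2 is higher in DRF ZT20.

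Collagen and matrix genes gave 3 higher and 3 lower in DRF ZT20 out of 18 tested (median log2 difference -0.04), where 7.85% of all genes were higher and 8.51% lower. The lower members numbered 1 without DRF ZT20 replicate 1 and 6 in the fit on the 8 libraries alone. Col4a2 and Col4a1, which encode chains of basement membrane collagen, were 1.54-fold and 1.28-fold higher in NRF ZT8 (log2 difference -0.62, SE 0.13, adjusted p = 4.34e-04 and log2 difference -0.35, SE 0.11, adjusted p = 0.0227). The call of Col4a1 was lost without DRF ZT20 replicate 1 (adjusted p = 0.0877) or NRF ZT8 replicate 1 (adjusted p = 0.0701), and its sign turned on the values as deposited, where Col4a2 did not pass (adjusted p = 0.275). P4ha2, a collagen prolyl hydroxylase, averaged 3.0 ± 0.569 in DRF ZT20 and 1.42 ± 0.0458 in NRF ZT8 (log2 difference 0.71, SE 0.11, adjusted p = 1.30e-05). Col4a3, another basement membrane chain, measured 4.19, 2.25, 11.7 and 5.55 in DRF ZT20 and 14.9, 13.1, 28.1 and 13. in NRF ZT8 (log2 difference -1.51, SE 0.49, adjusted p = 0.0287) and lost its call without NRF ZT8 replicate 3, its highest animal (adjusted p = 0.114), or without DRF ZT20 replicate 1 or 2.

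The number of members called in a list moved with the scale and with single libraries. On the values as deposited 3975 of all 25359 genes were higher, against 1990 on scaled counts. There 12 of 20 heat shock, 17 of 24 respiratory chain and 15 of 27 fatty acid oxidation genes were higher. So were 9 of 18 gluconeogenesis, 9 of 15 bile acid and 6 of 16 glucocorticoid genes. The medians of the other clock outputs and of glycogen metabolism turned positive on that scale (0.02 and 0.05). The amino acid list had between 12 and 17 higher members without any 1 library, heat shock genes between 5 and 7, and the growth hormone list between 3 and 6 lower members. Gluconeogenesis had 2 higher members without NRF ZT8 replicate 3, glycogen metabolism 2 without DRF ZT20 replicate 3, and the other clock outputs 0 lower members without NRF ZT8 replicate 3. The other clock outputs had 2 higher members without DRF ZT20 replicate 1 or 4 or NRF ZT8 replicate 1 or 4, and 1 lower without DRF ZT20 replicate 2. Of the genes named so far with a call, Ahr, Col4a3, Gys2, Igfals, Junb, Nfil3, Pdk4, Per3 and Upp2 did not pass in the fit on the 8 libraries alone either. A1bg, Ahr, Col4a3, Cox6a1, Gys2, Junb and Tmem254a did not pass on the values as deposited.

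The dark-minus-light difference was next set against NRF ZT20 minus DRF ZT8, both groups 8 h into their feeding phase, with no animal shared. The test of the difference of the 2 differences called 385 genes (1.52%), 214 of them positive and 171 negative. Of these, 288 were also called between DRF ZT20 and NRF ZT8, which is 6.94% of the 4147. The tests share the DRF ZT20 and NRF ZT8 animals. In the fed pair alone 2934 genes (11.6%) were called. Because the regimens swap sides between the pairs, a gene that differs by regimen throughout the day has opposite signs in them and can pass this test. A call thus does not tell feeding state apart from regimen. Apoa5 (chr9:46268633-46271919), an apolipoprotein that controls plasma triglyceride, measured 219, 209.8, 221 and 197 in DRF ZT20 and 78.4, 91.8, 95. and 79. in NRF ZT8. It was lower in the dark in the fed pair, 104 ± 11.6 in NRF ZT20 against 148 ± 21.2 in DRF ZT8 (difference of differences 1.79, SE 0.20, adjusted p = 3.39e-07). Serpina1e had the same form, 1561 ± 916 in NRF ZT20 against 281 ± 111 in DRF ZT8 (difference of differences -5.23, SE 0.70, adjusted p = 1.16e-05). Over all 7 times its DRF means lay between 200.1 and 294 and its NRF means between 694 and 2070.5. Loxl4, a lysyl oxidase-like enzyme, did not pass between DRF ZT20 and NRF ZT8, with 1.84 ± 0.391 in DRF ZT20 and 2.76 ± 0.433 in NRF ZT8, and in the fed pair gave 15.1 ± 5.03 in NRF ZT20 against 3.47 ± 0.931 in DRF ZT8 (difference of differences -2.22, SE 0.25, adjusted p = 3.39e-07). The difference was of one sign in Serpina12 (vaspin, difference of differences -2.17, SE 0.26, adjusted p = 1.20e-06) and Abca2, a lipid transporter (difference of differences -0.77, SE 0.10, adjusted p = 1.25e-05), and of the other in Cyp3a59 (difference of differences 2.12, SE 0.26, adjusted p = 1.75e-06), Vwa3b (difference of differences 1.61, SE 0.20, adjusted p = 2.21e-06) and Brap, a regulator of MAP kinase signalling (difference of differences 1.12, SE 0.16, adjusted p = 2.31e-05).

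Among the lists, amino acid breakdown had the largest number of members in this test, 8 of 23, all positive, where 0.844% of all genes were. Its share was not the largest: the negative limb of the clock had 4 of 10 and the positive limb 2 of 5. Xenobiotic metabolism had 7 of 27 and the growth hormone list 4 of 18. These 4 lists had members of both signs. In the fed pair 2 of the amino acid members were higher and 2 lower in the dark, against 5.1% and 6.47% of all genes. Asl gave 588 ± 60.8 in NRF ZT20 and 449 ± 75.4 in DRF ZT8 (difference of differences 1.1, SE 0.22, adjusted p = 0.00397). Got1 gave 117 ± 11.3 and 123 ± 30.2 (difference of differences 1.65, SE 0.31, adjusted p = 0.00196). In cholesterol synthesis 4 of 22 members differed, all negative, where 0.674% of all genes were. None of the 22 was called in the fed pair, and 3 had an unadjusted limma p under 0.05. Mvd averaged 41. ± 15.5 in NRF ZT20 and 36.5 ± 4.1 in DRF ZT8 (difference of differences -1.61, SE 0.38, adjusted p = 0.0191). Of heat shock genes 0 of 20 and of cold-inducible genes 0 of 3 passed the test of the difference, where 1.52% of all genes did. At that share, lists of this size cannot show a lack of difference. An unadjusted limma p under 0.05 was found in 1 and 0 of them, against 2806 of all 25359 genes. Within the fed pair 7 heat shock genes were higher and 2 cold-inducible genes lower in the dark. Chordc1 averaged 19.3 ± 1.18 in NRF ZT20 and 8.48 ± 0.799 in DRF ZT8 (difference of differences -0.35, SE 0.23, adjusted p = 0.662). Without DRF ZT20 replicate 3 the test called 240 genes, and without NRF ZT8 replicate 4 it called 242.

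Earlier in fasting, DRF ZT16 and NRF ZT4 lay 4 h after the switch that closed access to food. Between them 4322 genes (17%) were called, 9.42% of all genes higher and 7.62% lower in DRF ZT16, and the difference of the differences between 8 h and 4 h was called in 104 (0.41%), 34 positive and 70 negative. This test and the one against feeding share the DRF ZT20 and NRF ZT8 animals. Clock genes and their outputs were among the 8 genes with the smallest p. Bhlhe41 averaged 0.0965 ± 0.0093 in DRF ZT16 and 0.10 ± 0.0335 in NRF ZT4, so its difference was seen at 8 h and not at 4 h (difference of differences -1.06, SE 0.15, adjusted p = 6.93e-05). Of the amino acid genes 21 of 23 were already higher in DRF ZT16 than in NRF ZT4. Upp2 was higher in the dark at 4 h, with 92.1 ± 21.1 in DRF ZT16 against 36.2 ± 20.2 in NRF ZT4, and lower at 8 h (difference of differences -2.35, SE 0.35, adjusted p = 2.68e-04), lost in a fit on the compared libraries alone (adjusted p = 0.0756). Per3 turned likewise, from 5.65 ± 0.99 in DRF ZT16 and 1.95 ± 0.49 in NRF ZT4 at 4 h (difference of differences -1.84, SE 0.28, adjusted p = 2.68e-04). Usp2, a deubiquitinase under clock control, averaged 3.8 ± 1.8 and 0.406 ± 0.26 at 4 h and 6.94 ± 2.79 in DRF ZT20 and 10.7 ± 3.92 in NRF ZT8 at 8 h (difference of differences -2.28, SE 0.36, adjusted p = 6.20e-04). Mknk2, a kinase of the translation factor eIF4E, averaged 102 ± 10.5 and 42.1 ± 4.97 at 4 h, and 84.3 ± 12.3 in DRF ZT20 and 83.3 ± 16.8 in NRF ZT8 at 8 h (difference of differences -1.23, SE 0.18, adjusted p = 9.86e-05). Narf (difference of differences -0.84, SE 0.12, adjusted p = 6.93e-05) and Acsm5, an acyl-CoA synthetase (difference of differences -0.64, SE 0.10, adjusted p = 7.21e-04, lost on the values as deposited), were negative too, and the RNA helicase gene Ddx17 was positive (difference of differences 1.09, SE 0.18, adjusted p = 6.20e-04). Arntl averaged at 4 h 60.1 ± 7.41 in DRF ZT16 and 53.9 ± 10.4 in NRF ZT4 (difference of differences 1.4, SE 0.27, adjusted p = 0.0044). Of the 10 genes of the negative limb 5 were called, where 0.41% of all genes were. None of the 23 amino acid genes was, which at that share cannot show that their difference stayed the same. An unadjusted limma p under 0.05 was found in 7 of these 23, against 2544 of all 25359 genes. In cholesterol synthesis 2 of 22 members were called, and 20 had an unadjusted limma p under 0.05. The median log2 difference of that list was 0.22 at 4 h, with 1 member higher and 0 lower in DRF ZT16, and -0.61 at 8 h. The count of 104 fell to 54 without NRF ZT8 replicate 3, to 64 and 68 without DRF ZT20 replicates 1 and 2, and to 65 without NRF ZT8 replicate 4.

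**Figure D5:**
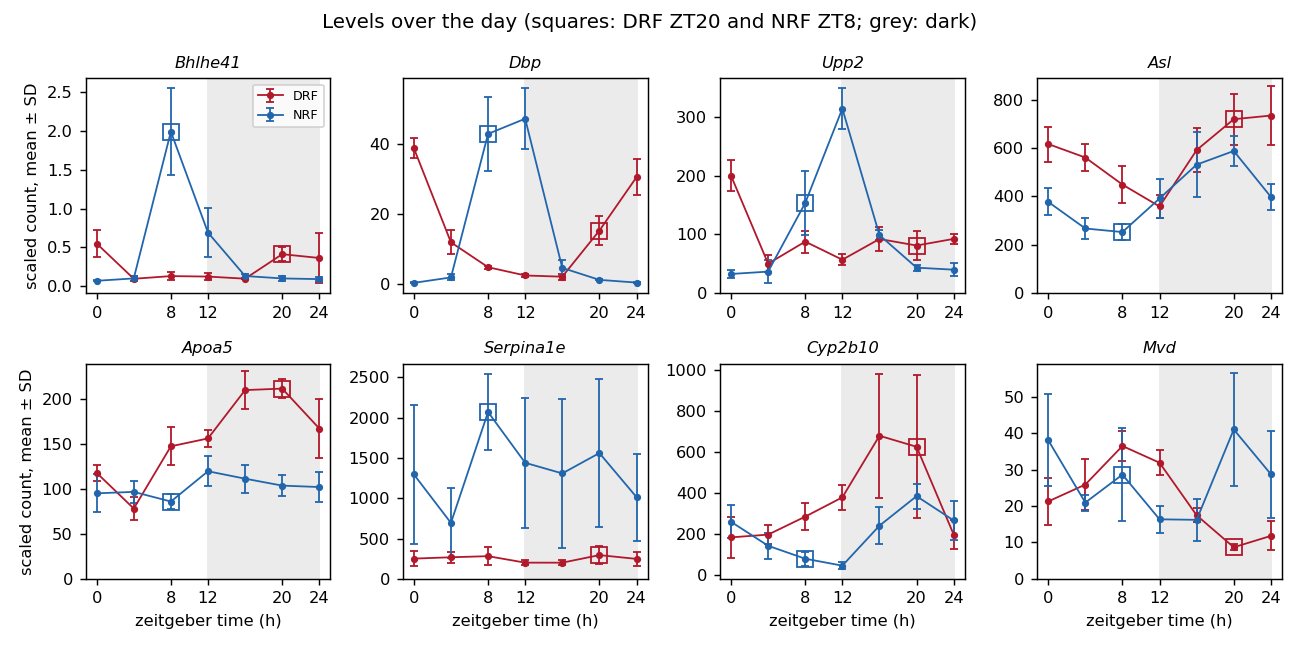
Mean scaled count with SD over 4 animals for 8 genes at 7 zeitgeber times under DRF (red) and NRF (blue), with the dark shaded and the 2 compared groups in squares. Bhlhe41 has its NRF maximum at ZT8, Dbp and Upp2 have theirs at ZT12, Apoa5 has its DRF maximum at ZT20, Serpina1e is higher under NRF at every time, and Mvd is at its lowest DRF mean at ZT20.

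Circular RNA was counted in the same libraries by reads across back-splice junctions, between 9374 and 18879 counts in the 8 libraries. In NRF ZT8 replicate 4, 28 circRNA values were raised by a common factor of 73.19, 20 of them among the 1131 circRNAs tested. None of the 1131 passed an adjusted p of 0.05 (0%, limma on the deposited log2 values), and 75 had an unadjusted p under 0.05. With the raised values left out, a choice made after the data were seen, none passed and 76 had an unadjusted p under 0.05. The smallest p belonged to novel_circ_0010414, with 306, 362, 248 and 336 junction counts in DRF ZT20 and 138, 185, 90 and 106 in NRF ZT8. All 4 DRF ZT20 libraries lay above all 4 NRF ZT8 libraries, with a log2 difference of 1.37 (SE 0.36, adjusted p = 0.339). It was the only circRNA called when NRF ZT8 replicate 1 (adjusted p = 0.0479) or replicate 2 (adjusted p = 0.0283) was left out, or when the test was limited to circRNAs above 0 in at least 50 of 56 libraries (adjusted p = 0.00544).

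Counts of called markers of other cells are set beside all genes, of which 7.85% were higher and 8.51% lower in DRF ZT20. The part of such cells in the differences above was not tested. Sinusoidal endothelial markers gave 2 higher and 0 lower in DRF ZT20 out of 9 tested (median log2 difference 0.05), with summed levels of 924 to 962 in DRF ZT20 and 823 to 936 in NRF ZT8. Kupffer cell markers gave 0 higher and 0 lower in DRF ZT20 out of 9 tested (median log2 difference -0.05), 1 at an unadjusted limma p under 0.05, with 676 to 1016 in DRF ZT20 and 698 to 878 in NRF ZT8. Stellate cell markers gave 0 higher and 1 lower in DRF ZT20 out of 9 tested (median log2 difference 0.03), with 857 to 1027 in DRF ZT20 and 846 to 1007 in NRF ZT8. Cholangiocyte markers gave 0 higher and 0 lower in DRF ZT20 out of 7 tested (median log2 difference 0.09), 1 at an unadjusted limma p under 0.05, with 24.6 to 37. in DRF ZT20 and 25.2 to 31.2 in NRF ZT8. Erythroid markers gave 0 higher and 0 lower in DRF ZT20 out of 6 tested (median log2 difference 0.02), 0 at an unadjusted limma p under 0.05, with 683 to 1632 in DRF ZT20 and 615 to 1352 in NRF ZT8. Lymphocyte markers were low in both groups, with 3.62 to 8.7 in DRF ZT20 and 5.06 to 7.79 in NRF ZT8, and 0 of 9 members tested were higher and 2 lower in DRF ZT20 (median log2 difference -0.06). Neutrophil markers gave 0 higher and 1 lower in DRF ZT20 out of 4 tested (median log2 difference -0.15) and 6 in the list, with 0.527 to 0.996 in DRF ZT20 and 1.35 to 1.78 in NRF ZT8. Pancreas acinar markers, of which 2 of 10 were tested, gave 0 higher and 2 lower in DRF ZT20 out of 2 tested (median log2 difference -0.5), with 2.11 to 3.21 in DRF ZT20 and 3.77 to 5.05 in NRF ZT8. Of adipocyte markers 3 of 6 were tested and gave 1 higher and 0 lower in DRF ZT20 out of 3 tested (median log2 difference 0.0031), with 1.62 to 2.17 in DRF ZT20 and 1.0 to 1.34 in NRF ZT8. Of gut epithelium markers 3 of 7 gave 0 higher and 0 lower in DRF ZT20 out of 3 tested (median log2 difference -0.11), 0 at an unadjusted limma p under 0.05, with 19.8 to 31.1 in DRF ZT20 and 21. to 32.7 in NRF ZT8. The summed levels of the neutrophil, pancreas and adipocyte markers did not overlap between the groups, and each was at most 5.05. Within the hepatocyte list 2 of 7 members tested were higher and 1 lower in DRF ZT20 (median log2 difference -0.12).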

How the data were processed

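Total RNA from 56 livers of female mice, 4 per regimen and zeitgeber time, was sequenced after removal of ribosomal RNA as strand-marking libraries with paired reads of 150 bases, per the protocol, whereas the molecule label reads polyA RNA. The submitters' processing notes name CASAVA 1.8, featureCounts 1.5.0-p3 and the builds mm10 and GRCm38.p6. The aligner and the strand setting of the counting are not given in the sources used here.

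The gene table that the authors deposited under the name TPM holds a score that is logarithmic in the counts: in each library the product of value and exon length was a constant times the natural log of 1 + f·k, where k is a whole count. With GENCODE vM21 exon lengths (GRCm38), k was whole for 20961 of 25415 genes. A searched length gave whole counts for 2180 genes, among annotated genes most often on chromosomes 17 to 19, where the authors' lengths differ. The annotated length was kept for 2003 genes under a wider tolerance. It was also kept for 215 genes with counts too deep to judge, whose levels rest on an unchecked length. The other 56 genes were left out. The scaled count f·k was used. Of counts held out of the search, between 96.2 and 98.9% came out whole, but k need not be reads. A planned filter at a mean deposited value of 0.1 removed 0 genes. circRNA values were deposited as log2 of scaled junction counts plus 1, and of 2352 circRNAs listed the 1131 with values over 0 in 28 or more of the 56 libraries were tested. The transcript table was not used here. Recovered counts per library ran from 305.4 to 685.5 M over the series.

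limma 3.58.1 in R 4.3.3 fitted 14 group means over all 56 libraries to log2(scaled count + 1) and tested DRF ZT20 against NRF ZT8 and the 2 differences of differences, with Benjamini-Hochberg adjustment over all 25359 genes and a threshold of 0.05. The labels number 4 liver samples per group from group-housed mice and do not say that each came from its own animal. They are called animals here, and p-values measure the spread between these samples. The scripts were tested on simulated data. Alternatives were the deposited values, pseudocounts of 0.1 and 5, a minimum mean of 1 scaled count, no filter, median-of-ratios scaling, a fit on the libraries compared alone, a mean-variance trend, the replicate number as a block, a correction for gene length, and leaving out each of the 8 libraries. The genes named are the 15 with the largest difference in each direction among called genes with groups that did not overlap and a mean of at least 2 scaled counts in the higher group, up to 4 members per list and direction or members needed to describe the list, and the 8 with the smallest p in each difference of differences. The comparison, the 26 gene lists and the 11 marker lists were chosen with earlier results of these data known. Promoters were read from RefSeq (GRCm38.p6, 32851 promoters of 27025 genes). Some genes are not reported here by name, and they stay in the counts.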

Additional observations from a re-analysis of the deposited data

Results flagged for a closer look

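In 17 of 216 groups of 4 animals, each the values of 1 gene or library measure, 1 animal lay far from the other 3 by Dixon's test (95% level), where chance gives about 1 in 20. NRF ZT8 replicate 3 was that animal for Col4a3 (28.1 scaled counts), Hlf (35.2), Ppp1r3b (10.4), Acacb (167), Me1 (972), Ahr (71.4), Igfbp2 (88.7), Igfals (22.6) and Junb (21.9). DRF ZT20 replicate 2 was that animal for Nr1d1 (48.1), Baat (418), Igfals (66.8) and Junb (18.8). The others were Hsd3b5 in DRF ZT20 replicate 1 (3.26), Ckap2l in DRF ZT20 replicate 4 (1.22), Fdft1 in NRF ZT8 replicate 2 (216) and the size factor of NRF ZT8 replicate 1 (1.03).

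The difference of differences was called between the fasting and the fed pair in 385 genes and between 8 h and 4 h of fasting in 104 genes (limma, adjusted p under 0.05). In the test against feeding, feeding state cannot be told apart from a regimen difference that lasts all day. Against feeding, the differences of differences (log2) were 1.79 for Apoa5, -2.22 for Loxl4, -2.17 for Serpina12, 2.12 for Cyp3a59, 1.61 for Vwa3b, -5.23 for Serpina1e, -0.77 for Abca2 and 1.12 for Brap. Against 4 h of fasting they were -1.06 for Bhlhe41, -0.84 for Narf, -1.23 for Mknk2, -2.35 for Upp2, -1.84 for Per3, -2.28 for Usp2, 1.09 for Ddx17 and -0.64 for Acsm5.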

How the results depend on the processing

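The count of genes differing between DRF ZT20 and NRF ZT8 lay between 3653 and 4968 under the alternatives that kept all libraries, 1 of which tested fewer genes (3755 of 13718), and between 3040 and 3640 without 1 library. Against feeding, 104 genes were called on the values as deposited in place of 385, and 240 to 395 without 1 library. Between 8 h and 4 h of fasting, 25 were called on the values as deposited and 69 with a pseudocount of 0.1 in place of 104, and 54 to 105 without 1 library. Of circRNAs, 1 was called among those above 0 in at least 50 libraries, and 0 to 1 without 1 library. Col4a1 turned to a log2 difference of 0.0014 on the values as deposited. Of 121 results on single genes, 87 never lost a call in 2173 comparisons with alternatives, which counts results that were not called to begin with, and 34 did at least once. The cause of these changes was not tested. With the replicate number as a block, 4164, 366 and 104 genes and 0 circRNAs were called. Same-numbered animals did not deviate together (correlations of 0.0044 to 0.052 over the 4 numbers), so the numbers were not read as pairs, and under this block Chmp2a (adjusted p = 0.0532), Pdk4 (adjusted p = 0.0522) and Hspd1 (adjusted p = 0.0525) did not pass. Counts recovered from logarithmic values, 4 animals per group and a light phase tied to the regimen limit every comparison.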
